A study of Mus musculus with 6 samples.

Results

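Vascular endothelium decides whether blood stays fluid and whether fibrin is removed, and 9 genes of that control were examined in 1G11 cells with and without forced expression of SOD3, the extracellular superoxide dismutase. They are Plau and Plat, which encode the urokinase and tissue-type plasminogen activators, Plaur, the urokinase receptor, Serpinb2, an inhibitor of both activators, F3, which encodes tissue factor, Tfpi, its inhibitor, Thbd, which encodes thrombomodulin, Procr, the endothelial protein C receptor, and Vwf, the platelet adhesion protein of endothelial granules. The genes were chosen by function, and the array read them with 12 of its 55681 probes, which stand for 9 of 36621 genes or, where a probe names no gene, transcripts. Each of the 12 probes was printed as 1 spot.

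1G11 is a mouse microvascular endothelial cell line, labeled as strain C57BL/6NCrLBR. The control cells (1G11-mock) did not overexpress SOD3 and the 1G11-SOD3 cells did, and before RNA was taken both had spent 6 h in conditioned medium of N202.1A cells, a mouse mammary cancer line. Each condition was represented by 1 modified line on 3 arrays, labeled as biological replicates, and unmodified cells or cells without conditioned medium were not analysed here. All values are therefore levels under the tumor-conditioned medium, and no response to that medium can be read from them.

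Plasmin, the protease that dissolves fibrin and also acts on the matrix around cells, is made from plasminogen by the tissue-type and urokinase activators, the second of which works on the cell surface when bound to its receptor. Coagulation starts when tissue factor binds factor VII, and the inhibitor encoded by Tfpi shuts this complex down together with factor X. Resting endothelium carries thrombomodulin, which turns thrombin from a clotting enzyme into an activator of protein C, and the protein C receptor presents protein C to that complex. Von Willebrand factor is stored in Weibel-Palade bodies, carries factor VIII in plasma and tethers platelets, and it is widely used as a marker of endothelial cells. Inflammatory signals, those through NF-κB among them, are known to raise tissue factor and to lower thrombomodulin in endothelium.

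Vwf was 3.14-fold lower in 1G11-SOD3 cells than in 1G11-mock cells, and it was the only member that was called, a call being an adjusted p under 0.05 in limma over all probes with a change above 2-fold. In the same comparison 2.93% of all probes were called, 1.06% lower and 1.87% higher in 1G11-SOD3 (8.05% of the probes well above background on all arrays of a line, as 10 of the 12 were), so that 1 call among 12 probes is a count from which nothing is read about the members together. F3, Procr and a probe of Tfpi also had values that did not overlap between the lines, F3 and Tfpi higher and Procr lower in 1G11-SOD3, but at less than 2-fold and with no call. Plat, Plaur and Thbd overlapped between the lines. Plau and Serpinb2 were not measurably above background, and no fold is given for them.

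The measurement was made on single-color Agilent arrays, and the values below are log2 intensities after background correction (normexp, offset of 50) and quantile normalization. Between 34.2% and 43.8% of the 59305 spots of an array were well above background by the scanner software, and none was saturated. Sod3 itself read 13.61, 12.66 and 9.86 on the 1G11-mock arrays and 16.37, 16.30 and 16.26 on the 1G11-SOD3 arrays, in the order of the labels (log2 fold change of 4.27, adjusted p of 0.00786). The 6 arrays shared 1 slide, on which row 1 held the 1G11-SOD3 and row 2 the 1G11-mock arrays, and an effect of slide row cannot be told apart from that of the cell line. With 3 arrays against 3, the smallest p of an exact permutation test is 0.1 (2-sided).

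Spots in the middle of the array, the central block when its 384 rows and 164 columns are each cut into 3 parts, read dim on the 1G11-mock arrays. For 128 probes printed in 10 copies, the copies in the middle differed from those elsewhere by a median of -0.67, -0.87 and -2.42 on the 1G11-mock arrays (log2), while the 1G11-SOD3 arrays gave 0.15, -0.18 and 0.11. Sod3 lies in this region, and of the members only Serpinb2 does. The shift was not confined to the middle, since spots near a member, within 16 rows and 8 columns, had median differences between the lines from -0.67 to 0.40 for the 11 member spots outside it. The difference of each member is therefore given beside that of its neighbors, and beside the value after a smooth surface over row and column had been taken off each array (position adjustment).

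**Figure D1:**
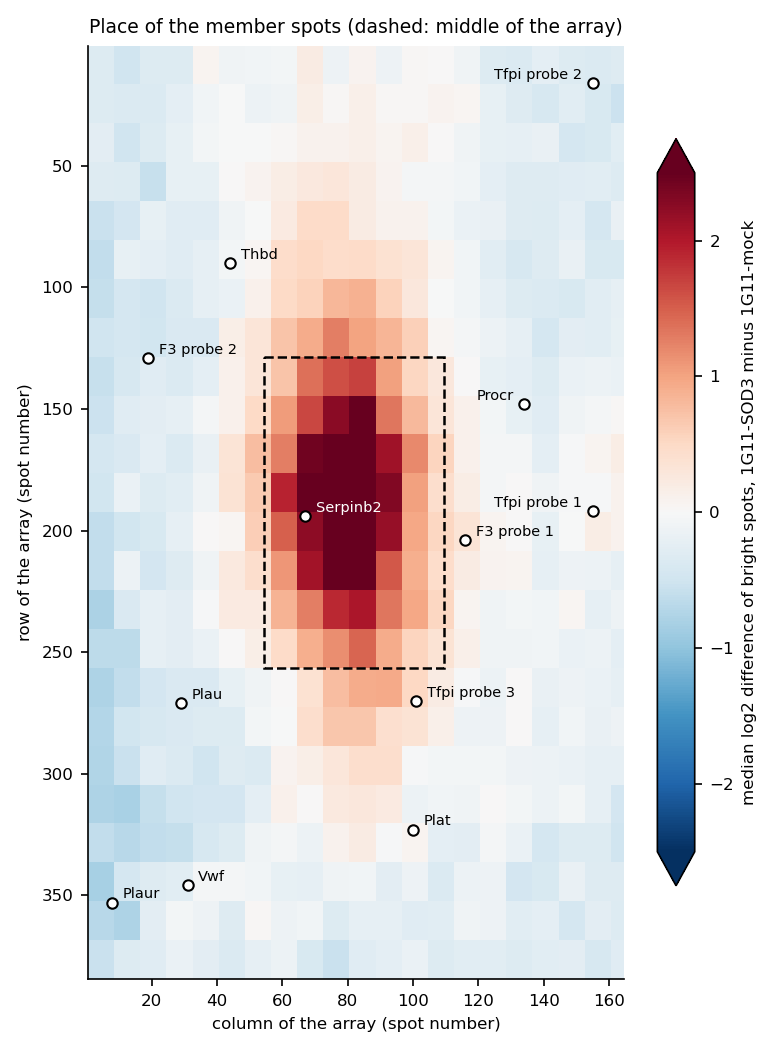
Place of the 12 member spots on the array (x axis, column; y axis, row, both as spot numbers). The color of each block of 16 rows by 8 columns is the median log2 difference of its bright spots, 1G11-SOD3 minus 1G11-mock, and deepens no further beyond the ends of the scale. The dashed frame is the middle of the array, which holds Serpinb2, while the spots of the other 8 genes lie outside it.

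The level of Vwf was 10.25, 10.07 and 10.16 on the 1G11-mock arrays and 8.73, 8.62 and 8.16 on the 1G11-SOD3 arrays. Every 1G11-mock array was above every 1G11-SOD3 array, and the gap between the lines exceeded the range within either, which was 0.17 for 1G11-mock and 0.57 for 1G11-SOD3. Before normalization, the mean spot intensities were 1270, 1010 and 1110 against 567, 500 and 498, on local backgrounds between 73 and 111. The spot was well above background on all 6 arrays.

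The log2 fold change of Vwf was -1.65 (SE 0.233, 95% interval -2.16 to -1.14, adjusted p of 0.00342). Leaving out each array in turn gave values from -1.77 to -1.48 with adjusted p up to 0.0233, so that the call was kept without any one of them. Spots near that of Vwf differed by a median of -0.21 between the lines, in the same direction. The position adjustment gave -1.16 (adjusted p of 0.113) when made before normalization, where the call was lost, and -1.43 (adjusted p of 0.0448) when made after it or -1.34 (adjusted p of 0.0383) with dim spots left out, where it was kept. After normalization and adjustment the levels were 10.42, 10.14 and 9.56 against 8.78, 8.89 and 8.16, which still did not overlap. With the adjustment before normalization they were 10.44, 10.15 and 9.02 against 8.88, 8.98 and 8.29. There the lowest 1G11-mock array lay only just above the highest 1G11-SOD3 array. The probe lies on the plus strand of chromosome 6 from 125636551 to 125636610 by the array annotation, which does not name its build.

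Since a culture was measured in bulk, fewer cells of a type and less RNA per cell cannot be told apart. Of 12 listed markers of endothelial cells, Eng, Kdr and Esam were well above background on all 6 arrays, and 5 (Cdh5, Tie1, Emcn, Robo4 and Tek) on none by their brightest probe. The study's methods state that staining for VE-cadherin, the product of Cdh5, was used to check that the line is endothelial. That stain reads protein, while the array read RNA of Cdh5 with 1 probe, so neither is a check of the other. In limma none of the 12 was called lower and Egfl7 was called higher (log2 fold change of 1.82), while at an unadjusted p under 0.05 there were 2 lower (Eng and Kdr) and 3 higher (Egfl7, Esam and Flt1). After normalization and position adjustment Egfl7 was 0.69 and not called (adjusted p of 0.228), and its call was kept only without 1G11-mock replicate 1 or 1G11-SOD3 replicate 3 (adjusted p of 0.0166 and 0.0209, the others 0.0565 to 0.0754). Eng was -1.05 (adjusted p of 0.0835), and -0.65 after that adjustment, and Kdr was -0.51 and then -0.43. Esam and Flt1, whose spots lie in the middle of the array, were 1.22 and 1.07. After that adjustment they were -0.75 and -0.12, so that their sign turned. The markers' summed linear intensity ran from 21689.5 to 29369 on the 1G11-mock arrays and from 16357 to 20346 on the 1G11-SOD3 arrays, without overlap, and Eng and Kdr made up 66.7% to 91.3% of it.

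Megakaryocytes also make von Willebrand factor, and of their 6 markers Gp1ba, Gp9 and Ppbp were well above background on no array, and none of the 6 was called in limma, with 1 lower and 1 higher at an unadjusted p under 0.05. Of 8 markers of fibroblasts and mural cells, Acta2, Pdgfrb and Lum were called higher in 1G11-SOD3, of which Acta2 and Pdgfrb were called also after normalization and position adjustment and with each array left out. Lum was not called after that adjustment (adjusted p of 0.0749), nor without 1G11-mock replicate 2 or 3 or 1G11-SOD3 replicate 3 (adjusted p of 0.0968, 0.112 and 0.0648). The sum ran from 19999 to 31484 in 1G11-mock and was 27659, 25451 and 146751 in 1G11-SOD3, where Dcn read 13.51, 13.59 and 17.05. The lines thus overlapped, with only 1G11-SOD3 replicate 3 above the range of 1G11-mock. The part of these cell types in the Vwf difference was not tested.

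**Figure D2:**
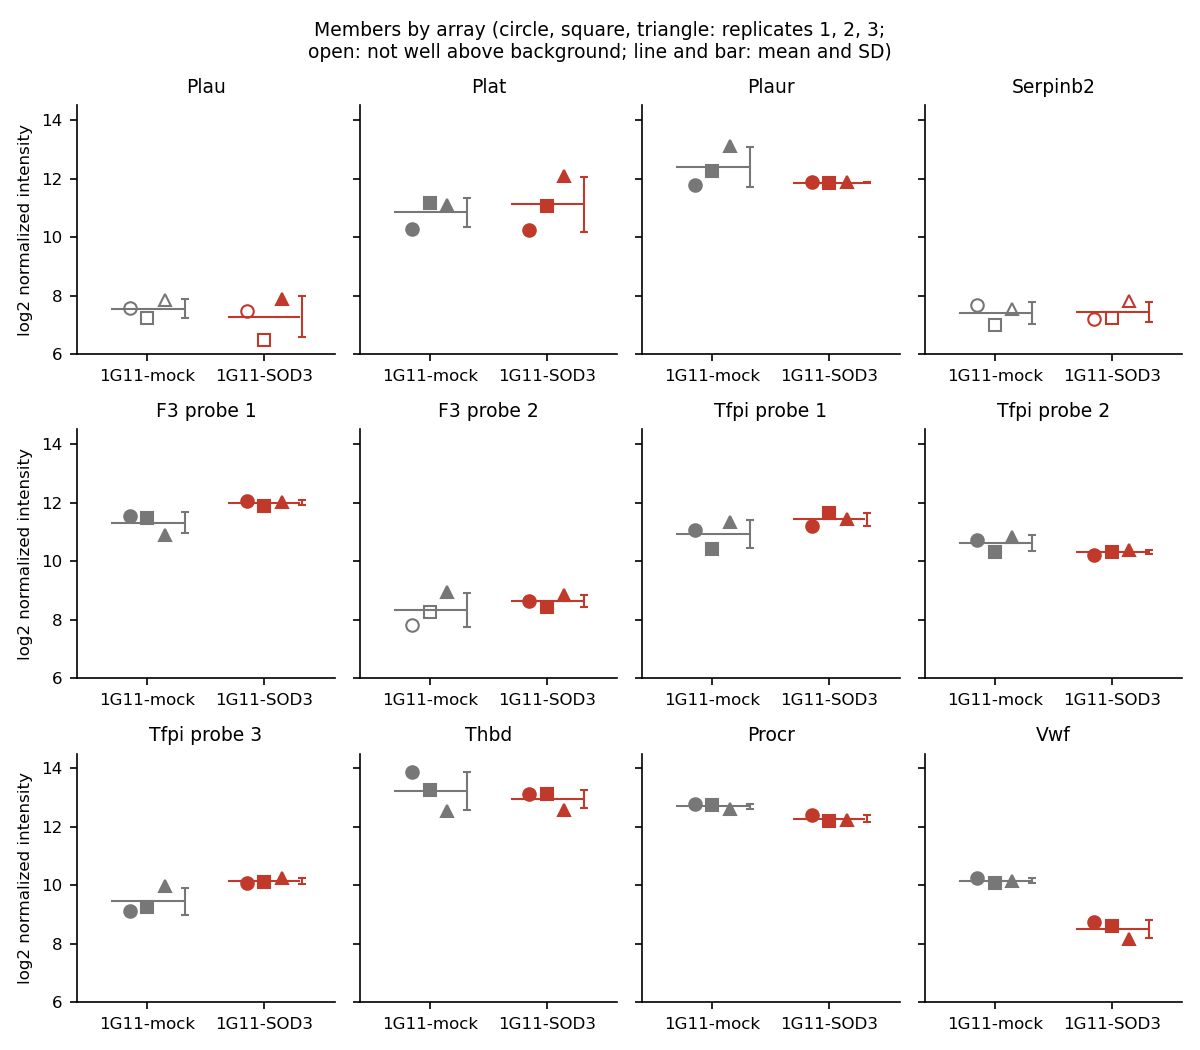
Log2 normalized intensity (y axis) of the 12 member probes on the 3 arrays of 1G11-mock (gray) and 1G11-SOD3 (red), with the mean and SD of each line. Replicates 1, 2 and 3 are circles, squares and triangles, and open symbols are spots not well above background. Vwf is the member with the widest gap between the lines, and Plau and Serpinb2 lie near background.

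Plau, the urokinase gene, read 7.59, 7.24 and 7.87 in 1G11-mock and 7.47, 6.51 and 7.89 in 1G11-SOD3 cells, and its spot was well above background on 1 array, 1G11-SOD3 replicate 3. The lines overlapped. No order can be given to values at this level.

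Plat, the tissue-type activator, was read at 10.29, 11.18 and 11.09 in 1G11-mock and at 10.23, 11.05 and 12.08 in 1G11-SOD3, above background on every array. The lines overlapped, with the lowest array of each line being replicate 1 and the range within 1G11-SOD3 reaching 1.85. The log2 fold change was 0.27 (SE 0.416, 95% interval -0.64 to 1.18, adjusted p of 0.827), an interval that reaches past 2-fold upwards. It changed sign without 1G11-mock replicate 1 (-0.02) and without 1G11-SOD3 replicate 3 (-0.21), and it was 0.33 after normalization and position adjustment.

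Plaur, which holds urokinase at the cell surface, read 11.79, 12.25 and 13.13 in 1G11-mock and 11.88, 11.84 and 11.88 in 1G11-SOD3. The 1G11-SOD3 arrays lay within 0.04 of each other and inside the 1G11-mock range of 1.35. The log2 fold change was -0.52 (SE 0.313, 95% interval -1.21 to 0.17, adjusted p of 0.502), smaller than the median difference of -0.67 among the spots near it. The position adjustment turned the sign, to 0.13 (SE 0.303), and so did the processed signal of the scanner software, with 0.14, so that no direction can be given.

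Serpinb2, an inhibitor that is best known from macrophages and keratinocytes, read 7.69, 6.99 and 7.55 in 1G11-mock and 7.22, 7.25 and 7.83 in 1G11-SOD3 cells, and was well above background on no array. Its spot is the only member spot in the middle of the array, where the spots near it differed by a median of 2.22 between the lines. On the 1G11-mock arrays, whose middle was dim, a low level cannot be told from none, and on the 1G11-SOD3 arrays, whose middle was not dim, no level was seen either.

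For F3 and Procr, which with Vwf are the members whose brightest probe did not overlap between the lines, the promoter is shown before the values. RefSeq promoters on GRCm38.p6 matched 5 of the 9 members (F3, Plaur, Procr, Serpinb2 and Tfpi), and Vwf, Plau, Plat and Thbd had no entry. The 250 bases before the start of F3 on chr3:121723287-121723536 (plus strand) are shown with matches to TGANTCA, the letters bound by AP-1, and to GGNNTTTCC, a form of the NF-κB letters, in capitals, and those before Procr on chr2:155750967-155751216 (plus strand) in the same way.
F3: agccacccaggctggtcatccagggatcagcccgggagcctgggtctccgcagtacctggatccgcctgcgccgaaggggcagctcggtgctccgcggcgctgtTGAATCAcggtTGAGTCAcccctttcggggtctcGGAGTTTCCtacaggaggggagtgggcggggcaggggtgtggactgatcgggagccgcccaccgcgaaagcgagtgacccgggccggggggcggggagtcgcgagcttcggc
Procr: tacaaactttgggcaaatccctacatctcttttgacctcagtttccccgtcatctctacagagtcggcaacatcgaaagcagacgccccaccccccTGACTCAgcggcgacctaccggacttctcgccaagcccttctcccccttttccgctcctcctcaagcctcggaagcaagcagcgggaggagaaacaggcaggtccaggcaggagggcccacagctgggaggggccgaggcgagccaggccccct

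The F3 sequence holds 2 matches to TGANTCA, which begin 146 and 135 bases before the start, and 1 match to GGNNTTTCC at 112 bases. The Procr sequence holds 1 match to TGANTCA, at 154 bases, and none to the other letters. Plaur had 1 match to TGANTCA at 69 bases, Serpinb2 had 1, which lies before both of its starts, and the promoters of Tfpi had no match to either. Of 32851 promoters of the same length, 6.75% held TGANTCA and 4.93% held GGNNTTTCC on either strand. The letters were chosen after the sequences had been read, and a match is a description and not a binding site.

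The brighter probe of F3 read 11.54, 11.49 and 10.91 in 1G11-mock and 12.06, 11.90 and 12.04 in 1G11-SOD3 cells. Every 1G11-SOD3 array was above every 1G11-mock array, with 1G11-mock replicate 3 the lowest. The log2 fold change was 0.68 (SE 0.242, 95% interval 0.15 to 1.21, adjusted p of 0.203), it ran from 0.48 to 0.80 as each array was left out, and it was 0.43 after normalization and position adjustment, where spots nearby differed by a median of 0.26. Such a separation between the lines was met in 4 of the 12 member probes and in 20.7% of all probes.

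The second probe of F3, also on chromosome 3, read 7.81, 8.25 and 8.95 against 8.65, 8.43 and 8.84, and was well above background on 1 array of 1G11-mock and on all 3 of 1G11-SOD3. The lines overlapped, with a log2 fold change of 0.30 (adjusted p of 0.702). Near this spot the arrays differed the other way, by a median of -0.41, and its value after normalization and position adjustment was 0.71 (SE 0.339, adjusted p of 0.256). Both probes of F3 thus had a positive difference in both settings, and neither was called in any of the alternatives tried.

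Tfpi was read by 3 probes on the minus strand of chromosome 2, of which the array annotation assigns probes 1 and 3 to transcript variant 1. It assigns probe 2 to transcript variant 2 and to another RefSeq transcript of the gene, and this probe is called the variant 2 probe below. Alternative ends of this gene give inhibitor forms that differ in how they are held at the cell surface. Probe 1 read 11.07, 10.40 and 11.34 in 1G11-mock and 11.21, 11.65 and 11.45 in 1G11-SOD3, overlapping, with a log2 fold change of 0.50 (SE 0.275, adjusted p of 0.453). Probe 3 read 9.11, 9.27 and 9.96 against 10.06, 10.11 and 10.25, not overlapping, with a change of 0.69 (SE 0.261, adjusted p of 0.237). Probe 2 read 10.73, 10.32 and 10.84 against 10.23, 10.32 and 10.39, overlapping, with a change of -0.32 (SE 0.229, adjusted p of 0.592).

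The variant 1 probes of Tfpi thus had positive differences and the variant 2 probe a negative one, none of them called, and this contrast could be taken within each array. It was not among the planned comparisons and follows signs seen in these same values. The p-values of its exact permutation tests are therefore only a description. The mean of probes 1 and 3 minus probe 2 was -0.64, -0.48 and -0.19 on the 1G11-mock arrays and 0.41, 0.56 and 0.46 on the 1G11-SOD3 arrays, 0.91 higher in 1G11-SOD3 without overlap (exact permutation test, 2-sided p of 0.1, the smallest possible). The zero of this scale has no meaning, since intensities of different probes are not on 1 scale, and only its change between the lines is read.

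The contrast depended on the place of the spots. Spots near probes 1, 2 and 3 differed between the lines by medians of 0.02, -0.33 and 0.40, beside 0.50, -0.32 and 0.69 for the probes themselves. After normalization and position adjustment the contrast was -0.54, -0.23 and 0.31 against 0.20, 0.26 and 0.14, a difference of 0.35 with overlap (exact permutation test, 2-sided p of 0.4). For probe 1 against probe 2 alone the difference was 0.82 before and 0.45 after the adjustment, without overlap in both (p of 0.1 each by exact permutation test), and for probe 3 against probe 2 it was 1.01 before and 0.25 after it (p of 0.1 and 0.7 by exact permutation test).

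**Figure D3:**
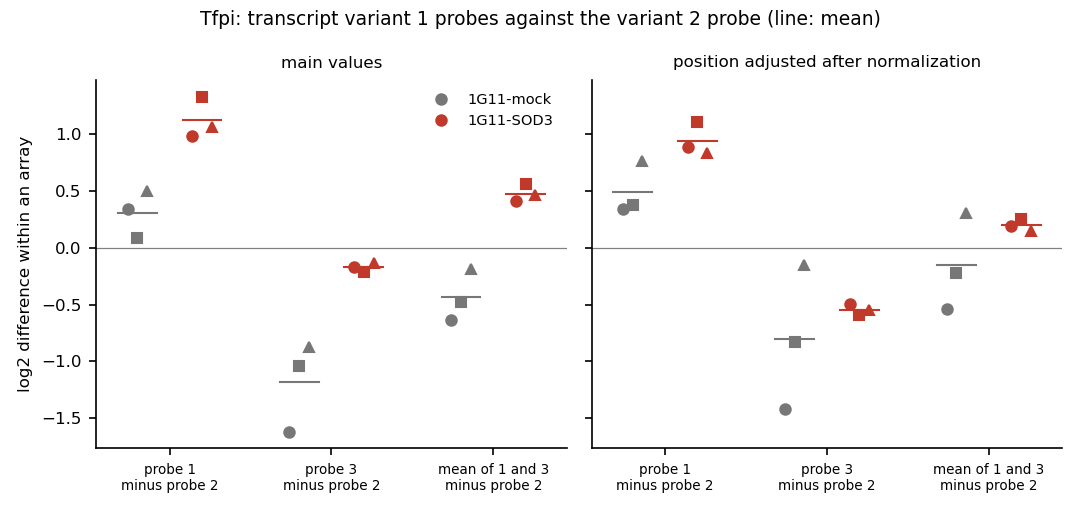
Log2 difference within an array (y axis) between the Tfpi probes of transcript variant 1 (probes 1 and 3) and the variant 2 probe (probe 2). Probe 2 is also assigned to another RefSeq transcript of the gene. Values are from 3 arrays of 1G11-mock (gray) and of 1G11-SOD3 (red), with lines at the means and symbols for replicates 1 to 3. The cell lines do not overlap in any of the 3 differences on the left, and after position adjustment on the right they overlap in all but probe 1 minus probe 2.

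Thbd, the thrombomodulin gene, read 13.85, 13.24 and 12.55 in 1G11-mock and 13.13, 13.10 and 12.58 in 1G11-SOD3 cells. The lines overlapped, and replicate 3 was the lowest of either line. The log2 fold change was -0.28 (SE 0.323, 95% interval -0.99 to 0.43, adjusted p of 0.758), it became 0.040 without 1G11-mock replicate 1, and it was -0.14 after normalization and position adjustment. Thbd is a gene without introns, and its probe lies on the minus strand of chromosome 2 from 148230235 to 148230294 by the array annotation.

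Procr, which holds protein C beside thrombomodulin, read 12.78, 12.73 and 12.60 in 1G11-mock and 12.40, 12.19 and 12.23 in 1G11-SOD3. The lines did not overlap and each spanned little, with SDs of 0.088 in 1G11-mock and 0.11 in 1G11-SOD3. The log2 fold change was -0.43 (SE 0.212, 95% interval -0.89 to 0.04, adjusted p of 0.395), and leaving out each array moved it between -0.49 and -0.39. Spots near it differed by a median of -0.23, and its value after normalization and position adjustment was -0.21.

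**Figure D4:**
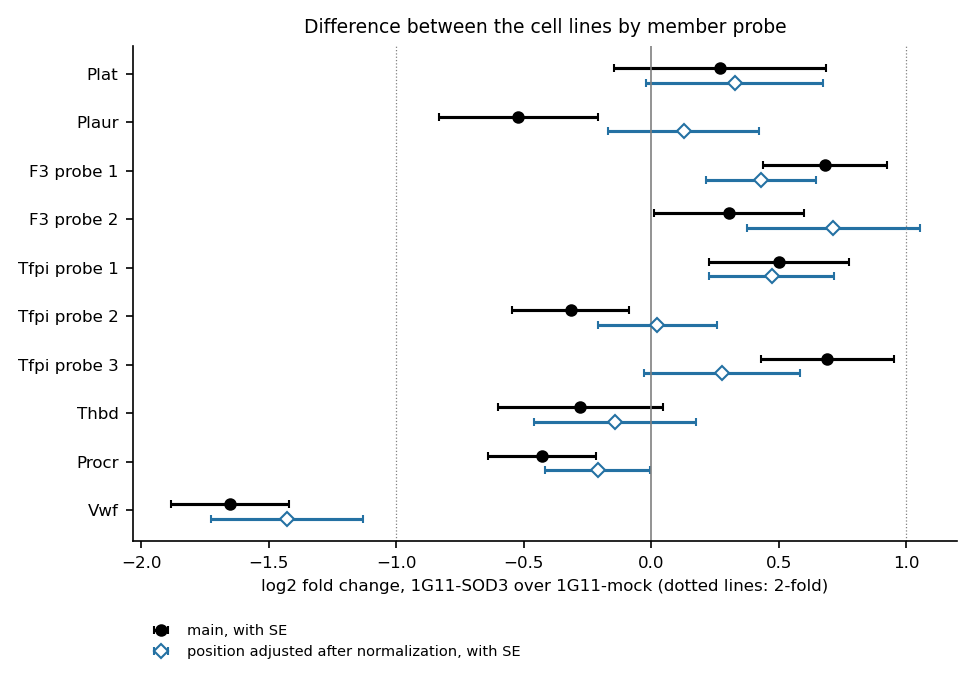
Log2 fold change of 1G11-SOD3 over 1G11-mock (x axis) for the 10 member probes that were well above background on all arrays of a line, as the main value (black circles) and after normalization and position adjustment (blue diamonds), each with its SE. Vwf lies beyond the 2-fold line in both, and Plaur changes sign.

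The 10 probes with a measurable level thus split into 5 higher and 5 lower in 1G11-SOD3, and their median log2 fold change was -0.01, against -0.03 over all probes. At an unadjusted p under 0.05, 3 member probes passed in limma, those of Vwf, the brighter of F3 and probe 3 of Tfpi. The share of all probes passing that cut is not given here. Nothing is therefore read about members, markers or list genes from counts at an unadjusted p.

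The other genes of the system were taken as a list of 69, of which 68 were measured, 27 were well above background on all arrays of a line and 37 on no array. By the brightest probe of each gene 5 were called, 2 higher and 3 lower in 1G11-SOD3, where 3.42% of all genes were called, 2.14% higher and 1.28% lower, and 7.97% of those well above background on all arrays of a line. The median log2 fold change of the list was -0.09, against -0.04 over all genes.

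Of 20 genes around plasmin, its activators, receptors and inhibitors, 3 were called. Thbs1, thrombospondin 1, a matrix protein that binds plasminogen and plasmin, rose from 11.57, 11.62 and 11.86 in 1G11-mock to 12.93, 12.56 and 13.43 in 1G11-SOD3 without overlap (log2 fold change of 1.29, adjusted p of 0.0229). After normalization and position adjustment it was 1.57 and still called, but the call was lost without 1G11-mock replicate 1 or 2 (adjusted p of 0.0593 and 0.0923) or 1G11-SOD3 replicate 1 or 3 (0.075 and 0.0898).

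Mrc2, a collagen receptor that associates with the urokinase receptor, fell from 12.49, 13.47 and 13.13 to 11.35, 11.45 and 10.67 without overlap (log2 fold change of -1.87, adjusted p of 0.00737), although a dimmer probe of it gave -0.29 (adjusted p of 0.72). Lrp1, which takes up complexes of plasminogen activators with their inhibitors, fell from 15.94, 16.20 and 15.80 to 15.05, 14.51 and 15.01 without overlap (log2 fold change of -1.13, adjusted p of 0.0298). Mrc2 was called with every array left out and Lrp1 only without 1G11-mock replicate 3 (adjusted p of 0.0459), the other 5 giving adjusted p from 0.0584 to 0.137. After normalization and position adjustment neither was called, with -1.08 (adjusted p of 0.0905) and -1.13 (0.0782).

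Among the direct partners of the members, Serpine2, protease nexin 1, and Plg, plasminogen itself, were well above background on no array.

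Of 12 measured genes listed with anticoagulants and their regulators, 1 was called, and the listing does not make each of them an anticoagulant. Gas6, a ligand of the TAM receptors that carries the same modified glutamates as protein S, was on no 1G11-mock array well above background and on all 3 1G11-SOD3 arrays, at 9.74, 9.17 and 8.67. It was at least 2.16-fold higher in 1G11-SOD3, the mean of that line being set against the dimmest signal well above background on each 1G11-mock array or the spot's own, whichever was higher (adjusted p of 0.00905). It is a probe of the middle, where 11.6% of the probes were called higher, the call was lost without 1G11-mock replicate 2 (adjusted p of 0.0528), and after normalization and position adjustment the difference was -0.57. Pros1, protein S itself, had a difference of -0.55 (adjusted p of 0.396).

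In limma none of 20 clotting factors, cofactors and fibrin genes was called, nor did any pass at an unadjusted p under 0.05, and 13 of them were well above background on no array. None of 4 thrombin receptors was called in limma either, with 1 (F2rl3, well above background on no array and named after its value was seen) at an unadjusted p under 0.05. F2r, the main thrombin receptor of endothelium, read 13.49, 13.44 and 14.14 against 13.78, 13.43 and 13.37, overlapping, with a difference of -0.16 (adjusted p of 0.832). A second probe of Vkorc1, the vitamin K reductase, was called higher by 1.52 on the log2 scale in the middle of the array, while the brightest probe of that gene, outside it, gave 0.25.

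Of 12 genes for binding or cleavage of von Willebrand factor and for Weibel-Palade bodies, 1 was called. Rab27a, a small GTPase found on those granules, fell from 10.77, 11.20 and 10.77 to 9.29, 9.32 and 9.69 without overlap (log2 fold change of -1.48, adjusted p of 0.0067), and it was called with each array left out. After normalization and position adjustment it was -0.79 and not called (adjusted p of 0.0873). Gp1ba, the platelet receptor subunit that binds the factor, and Gp9, another subunit of that receptor, were well above background on no array.

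**Figure D5:**
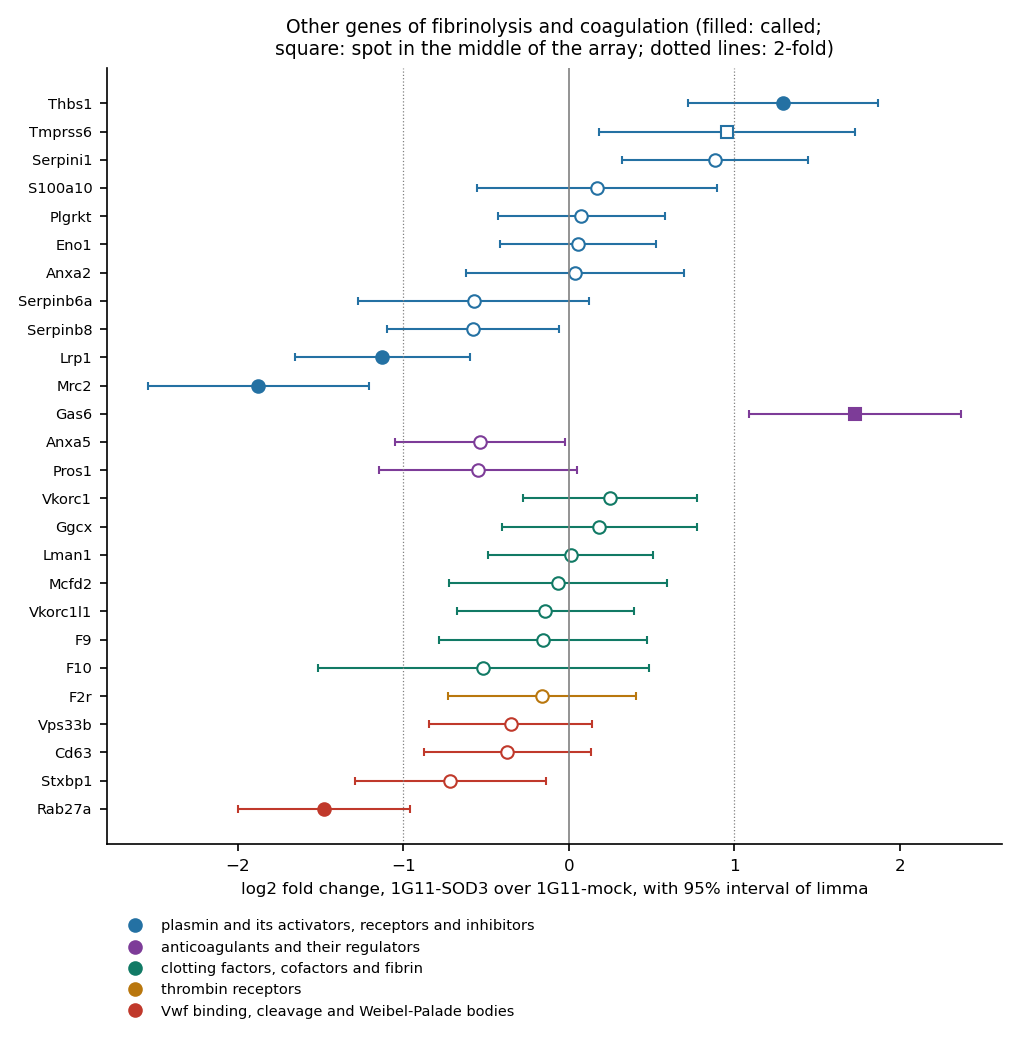
Log2 fold change of 1G11-SOD3 over 1G11-mock with its 95% interval (x axis) for 26 of the 27 list genes well above background on all arrays of a line, colored by group. Filled symbols are the 5 called genes and squares are spots in the middle of the array. Gas6 and Serpini1, which were well above background on no 1G11-mock array, are drawn at their fitted values.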

How the data were processed

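RNA of 1G11-mock and 1G11-SOD3 cells (3 independent experiments each, per the methods) was hybridized to 6 single-color Agilent arrays. The authors deposited scanner intensities from Feature Extraction 10.7.3.1, not normalized between arrays, and a table of log2 values after normexp correction and quantile normalization (median of 7.52 on each array), which served as an alternative. With limma 3.58.1 in R 4.3.3, mean spot intensities were corrected with normexp (offset of 50, local background median), taken to log2 and quantile normalized. Control spots and outlier spots were left out and the spots of a probe averaged. Lines were compared by limma with Benjamini-Hochberg adjustment over 55681 probes, a call needing an adjusted p under 0.05 and over 2-fold. The number of arrays limits the precision.

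Same-numbered arrays of the lines deviated together (correlations of 0.20, 0.14 and 0.14, others from -0.19 to 0.05), and the replicate block was an alternative. The replicate number was also the slide column of each array, so a shared experiment and a shared column cannot be told apart. The position adjustment took off a smooth surface (loess span of 0.02, fitted to spots with a mean log2 above 9). Members, gene lists and tests were chosen with earlier results of these data known. Named are all members and all their probes, the called list genes by their brightest probe, Serpine2, Plg, F2r and Pros1 whatever their values, and Sod3; other genes are named as markers or, after their values were seen, where a count turned on them. Some items that the rules cover are not reported here. The fit was tested on simulated data. Python 3.11.15 with pandas 2.3.3, numpy 2.4.6 and matplotlib 3.10.9 gave the summaries and plots.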

Additional observations from a re-analysis of the deposited data

How the results depend on the processing

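Over 22 alternatives, F3, Procr and Tfpi (brightest probes) kept the sign of their value and stayed uncalled. The median of all probes was -0.49 with the processed signal and -0.30 with scaling to the 75th percentile. Procr (-0.27 and -0.21) and Thbd (-0.24 and -0.06) lay above those medians, so a lower level in 1G11-SOD3 did not hold there. Plat changed sign without 1G11-mock replicate 1 (-0.02) or 1G11-SOD3 replicate 3 (-0.21), its range over arrays left out being -0.21 to 0.71, and Thbd without 1G11-mock replicate 1 (0.040, from a range of -0.61 to 0.040). Plaur turned to 0.14 with the scanner software's processed signal (75th percentile scaling) and to 0.13 with each of the 3 position adjustments, and the cause was not tested. Vwf was called in 21 alternatives and not with the position adjustment before normalization (-1.16), which left 0 of the 12 member probes called. At spots near background this adjustment takes the surface off values that hold no signal: it gave Serpinb2, well above background on no array, -2.11 (adjusted p of 0.037), which is not read as a difference. Of the 3 position adjustments, those after normalization and with dim spots left out were chosen after seeing the data.

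The list of other genes had 5 called genes, 16 with the processed signal, 3 with the position adjustment and 3 with that after normalization (F5 and Serpind1, on no array well above background, and Thbs1 in both), 2 with dim spots left out (Lrp1 and Thbs1), and 2 to 5 with an array left out. Over all probes, 1629 were called (1040 higher, 589 lower), 1056 without background correction, 10269 with the processed signal (1258 higher, 9011 lower), 2505 with scaling to the 75th percentile, 842 with the middle left out (299 higher, 543 lower), 2183 with the position adjustment (614 higher, 1569 lower), 1635 with that after normalization (398 higher, 1237 lower), 922 with dim spots left out (411 higher, 511 lower) and 775 to 1794 with an array left out. The processed signal moved the median of all probes to -0.49 and the 75th percentile scaling to -0.30, so that signs under them are read against those shifts. With the replicate block, 2252 probes (1452 higher, 800 lower), 5 list genes and 1 member probe, Vwf (adjusted p of 0.00244), were called, and of the named genes Esam (adjusted p of 0.0464) and Flt1 (0.0237), endothelial markers with spots in the middle, were called higher with the block and not without it, the other named calls being as before. Signal over background left no fold for Plau and Serpinb2.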
